A study of Mus musculus with 4 samples.

Results

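The mitotic germinal center B cells described here were 1924 of the 28550 cells kept from a single-cell RNA sequencing experiment on mouse spleen. They were chosen on their own transcripts. The sum of Cdc20, Ccnb1 and Cenpf had to reach 6 or more UMIs (unique molecular identifiers, which tag single captured mRNA molecules) per 10000 UMIs of the cell, a unit written CP10K below, and Jchain, which marks antibody-secreting cells, had to stay under 50 CP10K. Cells with 100 to 5500 detected genes and a mitochondrial share under 10% were kept, which left 28550 of 29473 deposited barcodes. Of the mitotic cells, 1663 came from the CD45.2+ library of 23467 kept cells and 261 from the CD45.1+ library of 5083. They made up 8.71% of the Jchain-low cells of the CD45.2+ library (95% Clopper-Pearson interval 8.32 to 9.12, counting error only) and 7.11% (6.30 to 7.99) of those of the CD45.1+ library. The rule does not separate G2 from M phase.

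CD45.1+ recipient mice had been given MD4 B cells, whose transgenic receptor binds hen egg lysozyme (HEL), and were immunized with sheep red blood cells coupled to HEL. Each recipient received a mixture of CD45.2+ donor cells carrying a B cell-restricted BCL2 transgene (BCL2.Tg) and CD45.1+ Dock8 wt/wt donor cells without it. The CD45.2+ BCL2.Tg cells were Dock8 wt/wt in 3 recipients and Dock8 cpm/cpm in the other 3, where cpm is a chemically induced mutation that abolishes DOCK8, an activator of the small GTPase CDC42 that acts in cell migration. HEL-binding CD95+ splenocytes were taken on day 8, labelled with 1 of 6 hashtag antibodies per mouse, and sorted into a CD45.1+ and a CD45.2+ pool, each of which gave 1 mRNA library and 1 hashtag library. All CD45.1+ cells were therefore Dock8 wt/wt, and their groups differ only in the CD45.2+ cells that shared the recipient. The labels give no age for the animals. The kept cells held 193575523 UMIs in the CD45.2+ library and 37112513 in the CD45.1+ library, of which the mitotic cells held 17052174 and 1975114.

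Germinal center B cells divide mainly in the dark zone, where their immunoglobulin genes are mutated, and move to the light zone to be selected by T cells. On entry into mitosis, cyclin B and its kinase CDK1 drive chromosome condensation and spindle assembly, and the kinetochores then bind spindle microtubules under the watch of a checkpoint. When every chromosome is attached, CDC20 switches on the anaphase-promoting complex, a ubiquitin ligase that marks cyclin B and securin for degradation and so lets the chromosomes part. Transcripts of this machinery accumulate through G2 and M and are low in resting cells.

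Assignment to a mouse rested on the hashtags, and these were incomplete for the mitotic cells. No hashtag count was recorded for 800 of the 1663 CD45.2+ mitotic cells (48.1%, against 40.8% of all Jchain-low cells of that library) and for 25 of the 261 CD45.1+ ones (9.58% against 7.24%). Of the mitotic cells with hashtag counts, 481 in the CD45.2+ library (55.7%, against 54.9% of its other Jchain-low cells) and 38 in the CD45.1+ library (16.1% against 26.4%) were called doublets from their hashtags. The 382 and 198 singlets that remained gave 90, 144 and 125 mitotic cells for the 3 CD45.2+ Dock8 wt/wt mice but 8, 6 and 9 for the mice labelled DOCK8-deficient. The CD45.1+ library gave 21, 35 and 45 in the Dock8 wt/wt group and 37, 27 and 33 in the DOCK8-deficient group. Transcript sums of CD45.2+ DOCK8-deficient mitotic cells thus held under 10 cells per mouse. They were left out of the mean ratios and levels per mouse below, except for the sex-linked genes and the looser settings named later. The ratios rest on 9 mouse sums. Levels of a whole library, detection shares and bins of the rule sum drew on all 1663 and 261 mitotic cells. These pools kept the hashtag doublets and the cells without hashtag counts. The libraries shared 1 barcode among mitotic cells and 38 among kept cells.

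Sex-linked transcripts separated the CD45.2+ cells by label. In the CD45.2+ Dock8 wt/wt mice, mitotic cells held Xist at 1516, 1786 and 1529 CPM (UMIs of the gene per 1000000 UMIs of the summed cells) and the Y-linked genes Ddx3y, Eif2s3y, Uty and Kdm5d at a summed 4.69, 4.56 and 4.72 CPM. In the mice labelled DOCK8-deficient, Xist stood at 435, 1055 and 712 CPM and the Y-linked sum at 134, 54.6 and 91.6 CPM, from 8, 3 and 9 Y-linked UMIs. Other Jchain-low cells from those animals lay further apart from the Dock8 wt/wt mice, at 254, 318 and 259 CPM of Xist and 191, 177 and 176 CPM of the Y-linked genes. The donor sexes noted by the study are the reverse of this for the CD45.2+ genotypes, whereas the hashtag table gives the groups used here. The number of CD45.2+ singlets also differed by label, with 2007, 2607 and 1672 kept in the Dock8 wt/wt mice and 57, 44 and 101 in those labelled DOCK8-deficient, of which 1655, 1988 and 1261 and 56, 39 and 94 were Jchain-low. This conflict between the notes and the transcripts was not resolved, so the CD45.2+ groups are named as the hashtag table labels them, and every direction between them rests on those labels. Sex-linked levels followed the label, so donor sex and Dock8 genotype cannot be told apart in any share or gene comparison between these groups.

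The label of the mitotic cells was checked on Aspm, Hmmr and Tpx2, which the rule did not use directly. Aspm, which focuses spindle poles, lay at 158, 194 and 173 CPM in CD45.2+ Dock8 wt/wt mitotic cells, at 95.5, 188 and 200 CPM in CD45.1+ cells of the Dock8 wt/wt group and at 172, 130 and 214 CPM in CD45.1+ cells of the DOCK8-deficient group. Each of these sums stood above all sums of the remaining Jchain-low cells, meaning those neither mitotic nor in S phase (Mcm3, Mcm5 and Mcm6 together at 6 CP10K or more), which ran from 4.55 to 15.6 CPM. Hmmr, a spindle-associated protein, was at 199, 267 and 258 CPM, at 248, 226 and 350 CPM and at 267, 268 and 285 CPM in the same order of groups. Tpx2, which activates the kinase Aurora A on spindle microtubules, was at 375, 387 and 348 CPM, at 357, 348 and 373 CPM and at 298, 424 and 402 CPM. Mean log2 ratios of mitotic to remaining cells, each with 10 CPM added, were 3.17 for Aspm, 3.36 for Hmmr and 3.37 for Tpx2, and all 9 sums were higher in the mitotic cells. These ratios describe cells picked for genes that vary with the markers, and no test was made between the mitotic cells and the others.

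To compare detection at equal depth, each cell was thinned to 2000 UMIs, which left out 126 shallower CD45.2+ mitotic cells. Aspm was then detected in 27.8% of CD45.2+ mitotic cells, 3.37% of S-phase cells and 1.92% of remaining cells, against 71.4% of mitotic cells at full depth. Tpx2 was detected in 49.1%, 13.6% and 4.86%, and Ube2c in 65.0%, 13.2% and 7.51%. Cd3d, a T cell gene given for comparison, was found in 0.325% of the mitotic, 0.421% of the S-phase and 1.25% of the remaining cells. In the CD45.1+ library Aspm was detected in 28.3% of mitotic, 4.33% of S-phase and 0.739% of remaining cells. Cd3d was found there in 0.820%, 0.197% and 1.66%. The T cell genes summed to 127 CPM in the remaining cells of that library, against 41.0 CPM in its mitotic cells. Cd3d in remaining cells may therefore come from T cells, and Aspm was not judged against it there.

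**Figure D1:**
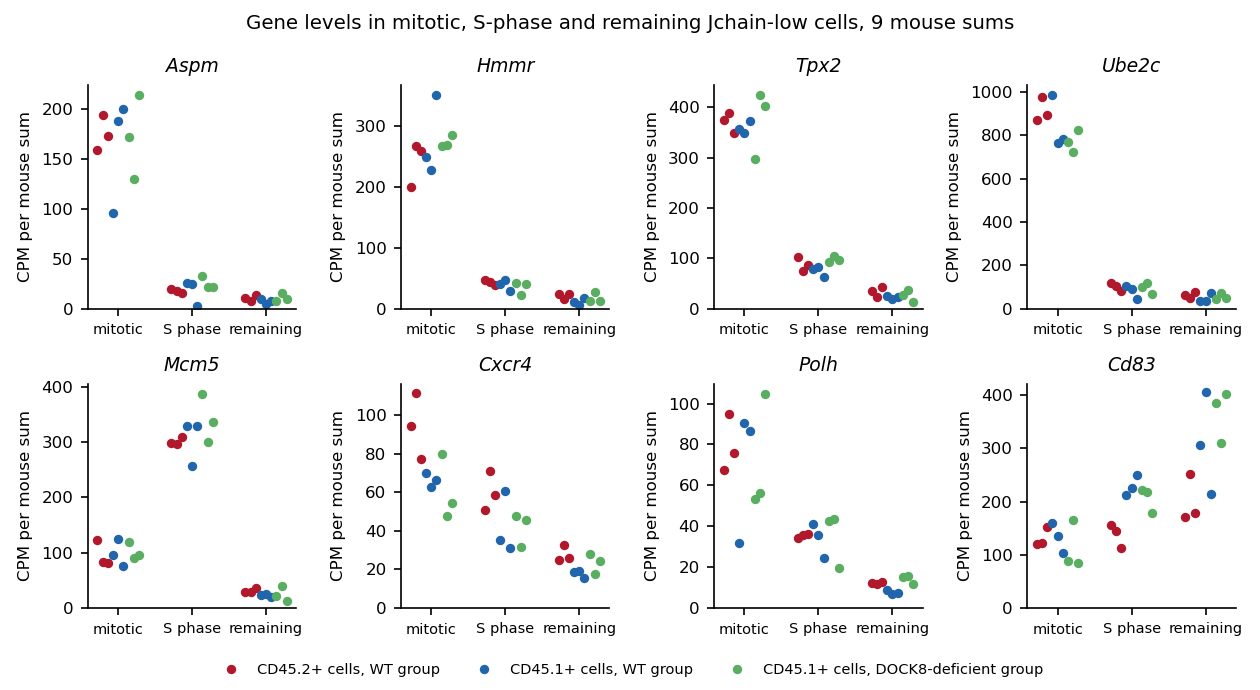
Levels of 8 genes in CPM (y axis) in mitotic, S-phase and remaining Jchain-low cells (x axis), with 1 point for each of 9 mouse sums and colors for the CD45.2+ Dock8 wt/wt cells and the CD45.1+ cells of either group. Aspm, Hmmr, Tpx2 and Ube2c were high in the mitotic cells of all 9 sums, Mcm5 peaked in S-phase cells, and Cd83 was lower in the mitotic than in the remaining cells.

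The promoters of the 3 rule genes and of Hmmr are shown for the CHR element TTTGAA and for CCAAT boxes, which occur in many genes of this program, together or singly. CHR elements are bound by the MuvB complexes that time G2 and M transcription, and CCAAT boxes by the factor NF-Y. The sequences below run 5′ to 3′ on the gene's own strand from 250 bases before to 50 bases after the RefSeq transcription start (GRCm38.p6), and capitals mark TTTGAA and CCAAT on either strand, so that TTCAAA and ATTGG are also capitals. They lie at chr4:118437294-118437593 for Cdc20, chr13:100786437-100786736 for Ccnb1, chr1:189688037-189688336 for Cenpf and chr11:40733388-40733687 for Hmmr, all on the minus strand.
Cdc20: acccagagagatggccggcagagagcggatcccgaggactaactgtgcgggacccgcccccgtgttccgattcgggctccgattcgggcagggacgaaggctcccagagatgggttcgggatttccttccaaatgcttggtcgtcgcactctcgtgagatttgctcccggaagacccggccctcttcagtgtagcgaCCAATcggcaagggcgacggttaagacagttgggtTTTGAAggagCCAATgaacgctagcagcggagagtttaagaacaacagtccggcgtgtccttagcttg
Ccnb1: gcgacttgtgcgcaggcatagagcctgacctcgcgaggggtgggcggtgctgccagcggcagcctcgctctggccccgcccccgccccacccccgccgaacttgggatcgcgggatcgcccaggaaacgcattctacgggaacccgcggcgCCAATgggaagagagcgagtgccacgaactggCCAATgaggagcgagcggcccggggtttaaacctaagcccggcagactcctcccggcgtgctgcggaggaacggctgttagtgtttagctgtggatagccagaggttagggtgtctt
Cenpf: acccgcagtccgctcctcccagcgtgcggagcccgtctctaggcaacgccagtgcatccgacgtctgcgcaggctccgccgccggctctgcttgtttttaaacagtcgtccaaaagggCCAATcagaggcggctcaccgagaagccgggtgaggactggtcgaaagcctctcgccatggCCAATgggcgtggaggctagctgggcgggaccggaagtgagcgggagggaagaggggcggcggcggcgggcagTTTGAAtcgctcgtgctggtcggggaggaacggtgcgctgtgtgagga
Hmmr: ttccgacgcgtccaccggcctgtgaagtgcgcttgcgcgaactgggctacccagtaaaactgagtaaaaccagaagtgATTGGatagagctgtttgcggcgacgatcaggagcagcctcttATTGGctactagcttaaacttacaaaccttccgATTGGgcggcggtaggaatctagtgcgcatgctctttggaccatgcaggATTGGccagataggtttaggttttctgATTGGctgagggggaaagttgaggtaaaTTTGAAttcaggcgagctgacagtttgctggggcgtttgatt

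TTTGAA began at base 233 of the window in Cdc20, 253 in Cenpf and 259 in Hmmr, close to the start site, and was not found in this window of Ccnb1. CCAAT boxes on either strand began at bases 198 and 243 in Cdc20, 152 and 184 in Ccnb1 and 119 and 180 in Cenpf, and Hmmr held 5 of them. Among 27025 RefSeq promoters of this length, 18.1% held TTTGAA on either strand, 37.9% held CCAAT and 7.12% held both. Of the 63 genes with an entry from the 6 lists on cyclins and kinases, kinetochore, spindle, cytokinesis, chromosomes and the anaphase-promoting complex, 41 (65.1%) held TTTGAA, 47 (74.6%) held CCAAT and 35 (55.6%) held both. The S-phase list held TTTGAA in 1 of 16 promoters and CCAAT in 10. TTCAAA and ATTGG can share a base, which they did not in the sequences printed here, and a match is a description of the sequence only. Tpx2 had no entry.

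Genes of the mitotic machinery were then read list by list, as the mean log2 ratio of mitotic to remaining cells over 9 mouse sums. Over all 7412 genes at 10 CPM or more the median ratio was 0.09, with 20.1% above 0 in all 9 sums and 10.3% below 0 in all 9. Against S-phase cells 6.45% of them were above 0 and 6.13% below 0 in all 9 sums. All 14 cyclins and mitotic kinases were above 0 in every sum, with a median of 2.63. Cdk1, the kinase that starts mitosis, stood at 255, 317 and 307 CPM in CD45.2+ mitotic cells, at 267, 261 and 315 CPM in CD45.1+ cells of the Dock8 wt/wt group and at 233, 186 and 298 CPM in those of the DOCK8-deficient group. Plk1, which matures the spindle poles, stood at 189, 223 and 197 CPM, 185, 171 and 220 CPM and 130, 182 and 226 CPM. Ccna2 (mean log2 ratio 3.03) and Ccnb2 (3.00), the cyclins beside Ccnb1, and Nek2 (3.07), a centrosome kinase, lay as high. Against S-phase cells the list's median was 1.38, and 13 of 14 were above 0 in every sum.

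The 14 kinetochore and checkpoint genes had a median of 2.52, with all 14 above 0 in every sum. Cenpe, the motor that carries chromosomes to the spindle equator, had a ratio of 3.21, and Sgo2a, a guardian of centromere cohesion, 3.10. Mad2l1, a checkpoint protein, was raised over remaining cells by 1.87 but lay only 0.22 above S-phase cells, and Bub3 had a ratio of 1.70. All 17 spindle and motor genes were above 0 in every sum against both remaining cells (median 2.71) and S-phase cells (1.58), led by Nusap1, a microtubule-bundling protein, at 3.29. The 8 cytokinesis genes were likewise above 0 against both, with medians of 2.61 and 1.49. Among them Kif23, a motor of the spindle midzone, had a ratio of 3.05 and Prc1, which bundles midzone microtubules, 2.96.

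The 11 genes of the chromosomal passenger complex and of chromosome structure had a median of 2.71, and all 11 were above 0 in every sum. Birc5, the passenger subunit survivin, had a ratio of 3.11 over remaining and 1.46 over S-phase cells. Mki67, which coats mitotic chromosomes, reached 1091 CPM in the pooled CD45.2+ mitotic cells, against 586 CPM in S-phase and 198 CPM in remaining cells. Top2a, which untangles sister chromatids, stood 3.00 above remaining cells but 0.69 above S-phase cells. For the anaphase-promoting complex and its partners the median was 1.67, with 9 of 9 above 0. Ube2c, the ubiquitin-conjugating enzyme of that ligase, had the highest ratio outside the rule, 3.74, and lay at 873, 976 and 895 CPM in CD45.2+ cells, 987, 763 and 781 CPM in CD45.1+ cells of the Dock8 wt/wt group and 771, 723 and 826 CPM in those of the DOCK8-deficient group. Its inhibitor Fbxo5 was raised by 1.67 over remaining cells and stood at -0.26 against S-phase cells, and the subunit Anapc11 stood at 0.81 and -0.05.

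Transcription factors differed among themselves. Of 9 transcription factors of the G2 and M program and of S phase, 6 were above 0 in every sum over remaining cells, and the list's median was 0.75. Against S-phase cells the median was -0.06, with 1 factor above and 4 below in every sum. Foxm1, which drives G2 and M genes, stood at 45.9, 48.6 and 41.8 CPM in CD45.2+ mitotic cells and at 8.78, 5.73 and 9.44 CPM in the remaining cells of the same mice, and lay 0.80 above S-phase cells. Mybl2 and E2f8 were above remaining cells by 1.09 and 1.49 but below S-phase cells, with ratios of -0.86 and -0.67. E2f1, an activator of S-phase genes, had a ratio of -0.13 to remaining and -2.10 to S-phase cells.

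Replication genes were at intermediate levels. The S-phase list of 18 genes had a median of 1.06 over remaining cells and -1.39 against S-phase cells, with 16 of 18 below S-phase cells in every sum. S-phase cells had been chosen on Mcm3, Mcm5 and Mcm6, so these values are partly set by that choice. Mcm5, a subunit of the replicative helicase, stood at 122, 82.8 and 81.0 CPM in CD45.2+ mitotic cells and at 285 CPM in the pooled CD45.2+ S-phase cells. Pcna, the polymerase clamp, had a ratio of -1.68 to S-phase cells, and Rrm2, a subunit of ribonucleotide reductase, -1.13. Replication-dependent histone genes differed from these: 8 of 8 were above remaining cells in every sum (median 2.11), and their median against S-phase cells was 0.15, with no gene apart in every sum. Hist1h2ap stood at 853 CPM in mitotic and 861 CPM in S-phase cells of the CD45.2+ library. Most replication-dependent histone mRNAs lack a poly(A) tail, so poly(A) capture may sample them incompletely.

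The dark zone part of the label was checked on germinal center genes. Of 8 dark zone genes, 7 were above remaining cells in every sum (median 1.27), and Cxcr4, the chemokine receptor that holds cells in the dark zone, the surface protein gene Cd24a and the transcription factor gene Tcf3 were also above S-phase cells in all 9 sums, by 0.53, 0.63 and 0.31, against 6.45% of all genes. Cd24a stood at 963, 915 and 900 CPM in CD45.2+ mitotic cells and at 239, 249 and 328 CPM in the remaining cells of the same mice, without overlap. Polh, an error-prone polymerase of somatic hypermutation, had a mean log2 ratio of 1.92 to remaining cells, whereas Foxo1, a dark zone transcription factor, stood at 0.22.

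Light zone transcripts were present in the mitotic cells. The 16 genes of that list had a median of -0.42 and summed to 897 CPM in CD45.2+ mitotic and 1280 CPM in remaining cells, and 3 of 16 (18.8%) were below 0 in every sum, against 10.3% of all genes. Cd83, an activation marker of light zone cells, stood at 121, 122 and 153 CPM in CD45.2+ mitotic cells against 171, 252 and 178 CPM in the remaining cells of the same mice. In CD45.1+ cells it stood at 159, 136 and 104 CPM against 307, 406 and 215 CPM in the Dock8 wt/wt group. Il4i1, a secreted amino acid oxidase, had a ratio of -1.70 to remaining cells. Of 13 germinal center identity genes, 8 were higher in every sum, among them the repressor Bcl6 (0.95) and its partner Mef2b (0.98), and Nuggc, a germinal center GTPase, was higher in every sum than both remaining (1.67) and S-phase cells (0.70). The B cell factor Ebf1 was lower in every sum (-0.35).

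Transcripts of resting and recirculating B cells were low, and 9 of 10 naive and memory genes were below remaining cells in every sum (median -2.14). Klf2, which maintains the receptors for exit into blood and lymph, had a ratio of -3.08, and stood at 83.4, 109 and 106 CPM in CD45.2+ mitotic cells against 735, 645 and 536 CPM in the remaining cells of the same mice. Plac8 had the lowest ratio of the genes at 10 CPM or more, -3.67, but varied from 3.48 to 252 CPM among the 9 mitotic sums, with high and low values in CD45.1+ mice of either group. Plasma cell genes summed to 2257 CPM in CD45.2+ and 2242 CPM in CD45.1+ mitotic cells, against 30722 and 38224 CPM in the mitotic plasmablasts, meaning the 133 and 58 cells that met the mitotic rule but held Jchain at 50 CP10K or more. Jchain is itself in this sum and its level divided these classes, so the contrast is partly set by the rule. The 9 T cell genes summed to 41.1 and 41.0 CPM, below the 69.7 and 127 CPM of remaining cells, with Lck the most abundant and 0 and 4 of them at 0 counts. The 8 myeloid and erythroid genes summed to 6.04 and 3.54 CPM, led by Itgam, with 2 and 5 at 0 counts.

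**Figure D2:**
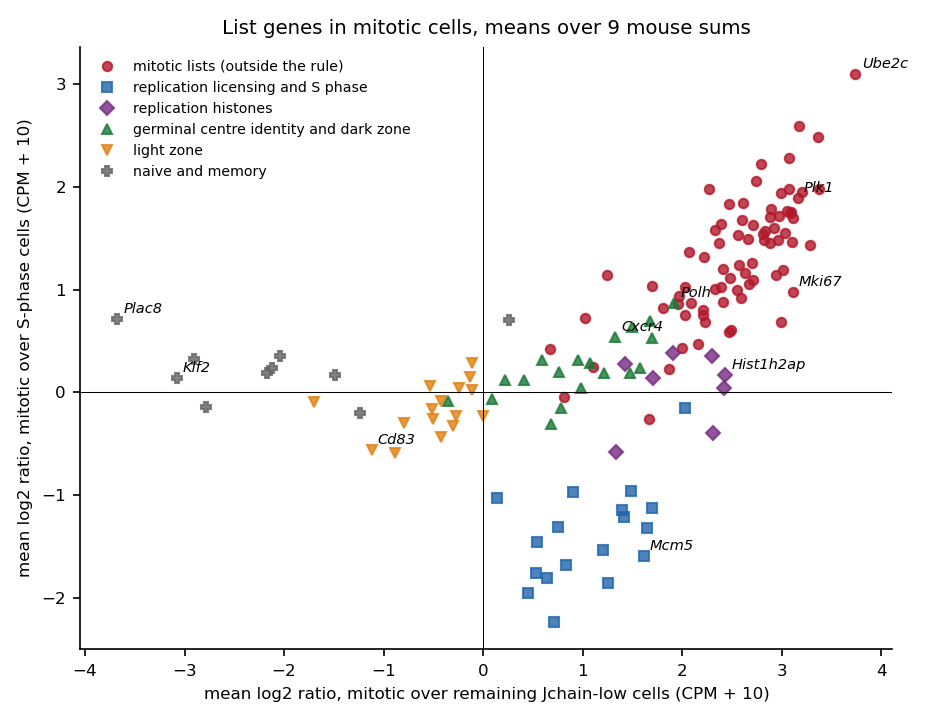
Each point is a gene, with the mean log2 ratio of mitotic to remaining Jchain-low cells on the x axis and of mitotic to S-phase cells on the y axis (CPM + 10, means over 9 mouse sums), colored by list. Most genes of the mitotic lists sit in the upper right, while Fbxo5 and Anapc11 lie below 0 on the y axis (-0.26 and -0.05). S-phase genes lie below 0 on that axis, and most naive and memory genes lie at the left.

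The mitotic cells were not uniform. The rule sum had a median of 10.7 CP10K in the CD45.2+ and 11.3 CP10K in the CD45.1+ library and reached 68.4 and 81.4 CP10K. Cenpf was detected in 1557 and 238 of the cells, Cdc20 in 1424 and 222, and Ccnb1 in 1294 and 185, and all 3 genes together in 1119 and 152. Only 1 UMI of the rule genes carried 99 of the 1924 cells over the threshold. At the threshold, the 232 CD45.2+ cells with a sum of 6 to 7 CP10K held Tpx2 at 260 CPM and Ube2c at 438 CPM, and the 311 Jchain-low cells with 5 to 6 CP10K, just outside, held 250 and 347 CPM, so the boundary cuts through a continuous range.

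Cells were pooled in bins of the rule sum to describe this range, with no test, since the bins follow the rule. In the CD45.2+ library 969 cells held 6 to 12 CP10K, 542 held 12 to 24 and 152 held 24 or more. Over these bins Tpx2 went from 293 to 388 and 647 CPM, Ube2c from 600 to 1063 and 1512 CPM and Aspm from 118 to 206 and 456 CPM. S-phase genes went the other way, from a summed 2316 to 1462 and 796 CPM, and replication-dependent histone genes from 2855 to 1679 and 583 CPM. Germinal center identity genes went from 2778 to 3316 and 3761 CPM and light zone genes from 864 to 947 and 989 CPM. The 139, 90 and 32 CD45.1+ cells in these bins gave the same order for S-phase genes (2448, 1487 and 697 CPM), histones (2631, 1456 and 412 CPM) and germinal center genes (2772, 3255 and 4214 CPM), but not for light zone genes (721, 978 and 813 CPM). Median UMIs per cell also moved with the bins, from 10349 to 8405 and 6532 in the CD45.2+ library, and their part in these trends was not tested.

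**Figure D3:**
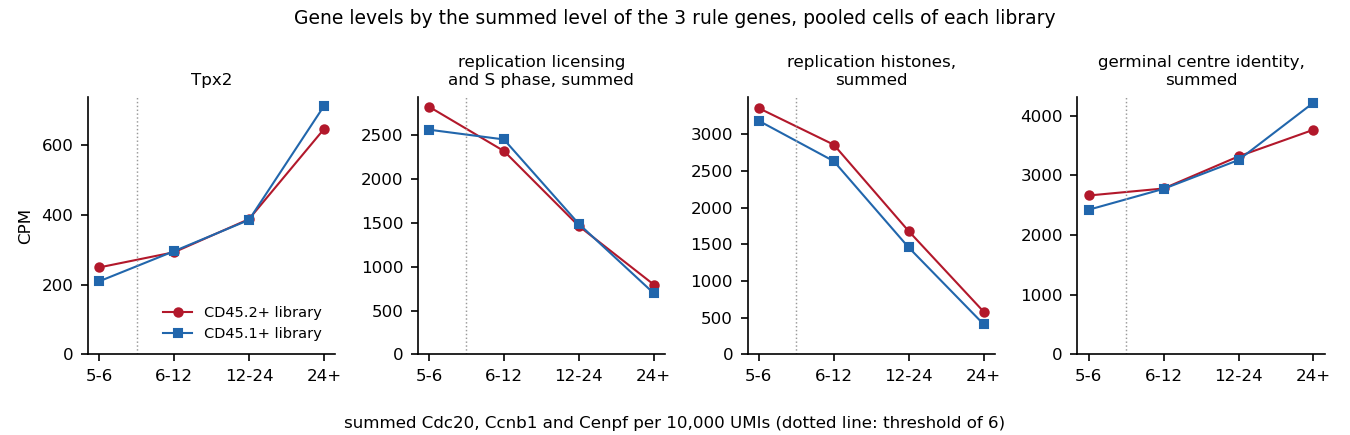
Summed or single-gene levels in CPM (y axis) of Tpx2, the S-phase list, replication-dependent histones and germinal center identity genes, in bins of the summed Cdc20, Ccnb1 and Cenpf level in CP10K (x axis), for cells pooled within each library. The dotted line marks the threshold of 6 CP10K, above which Tpx2 is higher and S-phase and histone transcripts are lower from bin to bin.

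Signs of combined cells were also counted. The summed level of Mcm3, Mcm5 and Mcm6 passed 6 CP10K in 168 CD45.2+ mitotic cells (10.1%) and 41 CD45.1+ ones (15.7%), against 15.9% and 15.5% of the other Jchain-low cells. Median UMIs were 9131 in CD45.2+ and 6906 in CD45.1+ mitotic cells, close to the 9487 and 6982 of S-phase cells and above the 5903 and 4359 of remaining cells. Hashtag doublets among the CD45.2+ mitotic cells had a median of 13589 UMIs, against 9711.5 in singlets. Mitotic cells were 7.75% of CD45.2+ doublets and 7.50% of singlets, and 4.35% and 7.82% in the CD45.1+ library. Among CD45.2+ Jchain-low cells without hashtag counts the share was 10.3%, against 7.64% of those with them.

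The number of dividing cells was next compared between groups as the share of mitotic cells among the Jchain-low singlets of each mouse. In CD45.2+ cells the share was 5.44%, 7.24% and 9.91% in Dock8 wt/wt mice and 14.3%, 15.4% and 9.57% among those labelled DOCK8-deficient, whose 95% Clopper-Pearson intervals ran from 6.38 to 26.2%, 5.86 to 30.5% and 4.47 to 17.4%. The groups overlapped. Their means were 7.53% ± 2.25 (SD, n = 3) and 13.1% ± 3.09 (SD, n = 3), a difference of 5.55 percentage points that did not pass a two-sided exact permutation test (p = 0.2, Benjamini-Hochberg adjusted over 3 share comparisons 0.6). With 3 mice against 3 the smallest p is 0.1. The difference shrank to 1.05 points when hashtags were normalized per cell (exact permutation p = 0.4). It was 0.651 points when the highest hashtag had to be 3-fold over the next (exact permutation p = 0.8). In cells thinned to 2000 UMIs it was 1.26 points (exact permutation p = 0.8). With all kept singlets as the denominator it was larger, 6.37 points, with groups apart (exact permutation p = 0.1). With 1 mouse left out it ran from 4.40 points (without DOCK8-deficient replicate 2) to 7.30 points (without DOCK8-deficient replicate 3). The 8, 6 and 9 mitotic cells labelled DOCK8-deficient lay between the other cells of that label and the Dock8 wt/wt cells in Xist and Y-linked transcripts, as given above, and cells assigned to the wrong mouse are not covered by the counting intervals. Their part in the shares was not tested.

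In the CD45.1+ cells, which were Dock8 wt/wt throughout, mitotic cells made up 6.54%, 9.04% and 6.98% in the Dock8 wt/wt group and 8.03%, 9.89% and 7.43% in the DOCK8-deficient group. The means of 7.52% ± 1.34 and 8.45% ± 1.28 (SD, n = 3 each) differed by 0.929 points (exact permutation p = 0.5, adjusted 0.75). With 1 mouse left out the difference ran from 0.208 points (without DOCK8-deficient replicate 2) to 1.69 points (without Dock8 wt/wt replicate 2), and it was 1.51 points at 12 CP10K (exact permutation p = 0.1, groups apart). Within the 3 Dock8 wt/wt recipients, CD45.2+ cells exceeded CD45.1+ cells by a mean of 0.0105 points (paired exact permutation p = 1.0, where the smallest is 0.25). The CD45.2+ minus CD45.1+ difference was 4.62 points larger in the DOCK8-deficient recipients (exact permutation p = 0.2). This contrast was not tested under other hashtag rules. With the 3-fold rule, DOCK8-deficient recipients were higher by 0.651 points in CD45.2+ and by 0.703 points in CD45.1+ cells. The larger CD45.2+ difference was thus not seen under that rule. With hashtags normalized per cell, the values were 1.05 points in CD45.2+ and -1.16 points in CD45.1+ cells.

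**Figure D4:**
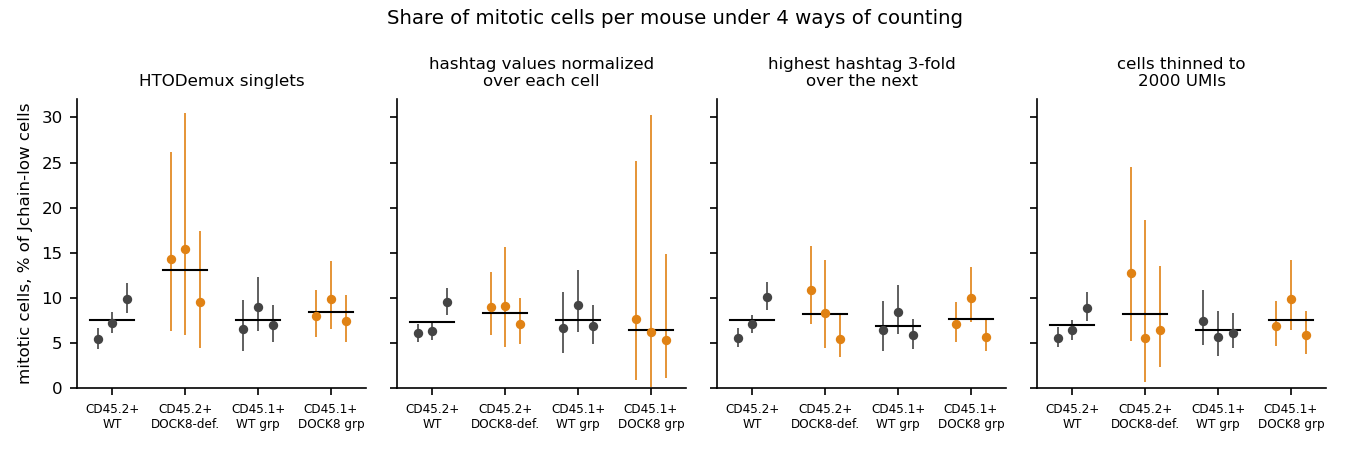
Share of mitotic cells among Jchain-low cells in percent (y axis), with 1 point per mouse and its 95% Clopper-Pearson interval, for either origin and either group of recipients, under 4 ways of handling the cells, with horizontal lines for the mean over 3 mice. Those labelled CD45.2+ DOCK8-deficient have the highest mean among the singlets called by HTODemux, with wide intervals and 1 mouse at 9.57% within the range of the other groups, and their mean lies closer to the others in the other panels.

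Hashtag antibodies bind surface proteins, so their counts give a further readout of each cell that the rule did not use. Counts were summed over all 6 hashtags of a cell, so they include other tags beside the mouse's own. Their medians were 1846, 2225.5 and 1982 in CD45.2+ Dock8 wt/wt mitotic cells and 2073, 2509.5 and 1968.5 in the other Jchain-low cells of the same mice. The mean log2 ratio was -0.11 ± 0.10 (SD, n = 3 mice, exact permutation p = 0.5, where 0.25 is the smallest), and -0.17 without Dock8 wt/wt replicate 3. In CD45.1+ cells it was 0.05 ± 0.09 (SD, n = 6 mice, exact permutation p = 0.219), with mitotic cells higher in 4 of 6 mice, and 0.02 without Dock8 wt/wt replicate 2. Neither difference passed its test, while the mitotic cells held more mRNA UMIs than the other Jchain-low cells in each of these mice.

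Mitotic cells of CD45.2+ and CD45.1+ origin were compared in the 3 Dock8 wt/wt recipients, where both were Dock8 wt/wt and only the CD45.2+ cells carried BCL2.Tg. The sort, the library and the transgene cannot be told apart in this comparison. Counts were summed per mouse and fitted with edgeR's quasi-likelihood model, in which 49 of 6442 genes passed an adjusted p of 0.05 (0.761%), 34 higher and 15 lower in CD45.2+ cells. DESeq2 called 48, and 652 had a p under 0.05 in edgeR before adjustment. Without replicate 1, 21 genes were called (18 higher and 3 lower), without replicate 3, 18 (14 higher and 4 lower), and without replicate 2, 51 (24 higher and 27 lower), so neither the count nor the balance of directions held without each mouse. For 16.8% of genes the 3 CD45.2+ values lay all above or all below the 3 CD45.1+ values. None of the 76 genes of the mitotic lists outside the rule passed the edgeR test, and DESeq2 called 0, while 12 had a p under 0.05 before adjustment and 16 had groups apart. Their median log2 fold change was -0.12. The rule genes, whose summed level chose the cells, are left out of this count. Dock8 had a log2 fold change of 0.18 (adjusted p = 0.826 from edgeR).

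Counts assigned to the mouse survival gene Bcl2 were at 64.7, 85.1 and 68.8 CPM in CD45.2+ and at 0, 3.48 and 5.79 CPM in CD45.1+ mitotic cells. That is 283 against 3 counts, a ratio of 19.3 with a counting interval of 6.53 to 94.0 (adjusted p = 4.0e-06 from edgeR). Counts from the transgene and from the native gene on chromosome 1 cannot be told apart, so the ratio is not a measure of transgene expression. In CD45.2+ remaining cells Bcl2 was at 216, 224 and 157 CPM, above all 3 mitotic values of the same mice.

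Ighd, the constant region of the IgD of naive B cells, was at 129, 147 and 122 CPM in CD45.2+ and 19.1, 38.3 and 37.6 CPM in CD45.1+ mitotic cells (edgeR adjusted p = 1.5e-05, log2 fold change 1.96 with an SE of 0.242). Ighg2b, that of IgG2b, was at 107, 149 and 198 CPM against 63.7, 45.3 and 57.9 CPM (log2 fold change 1.50). That call was lost when the rule was lowered to 3 CP10K (0.73, adjusted p = 0.167 from edgeR) and without replicate 2 or 3 (adjusted p = 0.0796 and 0.191 from edgeR), and the 3-fold hashtag rule gave a log2 fold change of 3.08. Slpi, a secreted protease inhibitor, was at 90.0, 63.8 and 66.8 CPM against 19.1, 17.4 and 20.2 CPM, with a log2 fold change of 1.93 (SE 0.327), and was not called without replicate 3 (adjusted p = 0.106 from edgeR). Ifi203, an interferon-inducible gene, was at 82.5, 75.2 and 81.0 CPM against 19.1, 27.9 and 49.2 CPM (1.17), and was not called by DESeq2 (adjusted p = 0.0899), at 3 CP10K (log2 fold change 0.69, adjusted p = 0.331 from edgeR) or without any 1 of the replicates (adjusted p from 0.103 to 0.387 from edgeR). Ctse, the protease cathepsin E, was lower, at 19.7, 12.9 and 31.0 CPM against 44.6, 69.7 and 75.2 CPM (log2 fold change -1.61, adjusted p = 0.00758 from edgeR), a call lost without any 1 of the replicates (adjusted p from 0.0778 to 0.104 from edgeR). In none of these genes did the groups overlap, which was a condition for naming them and adds no support to the calls. Of the 9 naive and memory genes tested, Ighd was the only one called, with a list median of 0.70, 8 of 9 above 0 and 5 of 9 at an unadjusted p under 0.05. Of the 8 plasma cell genes tested, Slpi was the only one called, with a median of -0.28, 2 of 8 above 0 and 5 of 8 at an unadjusted p under 0.05. The part of these lists in the result was not tested.

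Several of the other named genes have uncertain counts. Gm10800 and Gm10801 are neighboring predicted genes at chr2:98666547-98667301 and chr2:98662237-98664083, in a stretch of satellite-like repeats. Gm10800 was at 108, 139 and 109 CPM against 6.37, 10.4 and 5.79 CPM (edgeR adjusted p = 1.9e-07, log2 fold change 3.95 with an SE of 0.364). Gm10801 was at 22.5, 26.6 and 22.3 CPM against 0 in all 3 mice, 92 against 0 counts, which is at least 6.27-fold higher when 3 counts are allowed for the whole CD45.1+ group. AY036118, a long noncoding RNA at chr17:39847113-39848035 that overlaps Gm42418 on the other strand, was lower, at 567, 658 and 563 CPM against 1318, 1310 and 1409 CPM (log2 fold change -1.17, adjusted p = 1.0e-09 from edgeR). Snhg9, a host gene of small nucleolar RNAs annotated as antisense, was at 82.5, 95.7 and 72.2 CPM against 19.1, 31.3 and 23.1 CPM (log2 fold change 1.72). Gm10801 and Snhg9 were not called without replicate 3 (adjusted p = 0.128 and 0.0761 from edgeR).

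**Figure D5:**
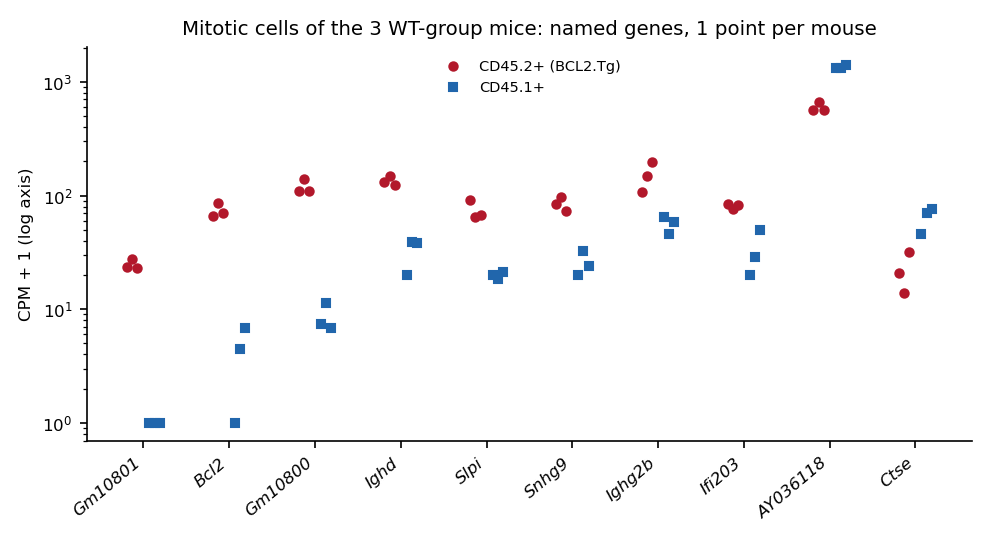
Levels of 10 genes in mitotic cells, as CPM + 1 on a log axis (y axis), with 1 point for each of 3 CD45.2+ BCL2.Tg and 3 CD45.1+ sums from the Dock8 wt/wt recipients. The groups do not overlap for any of these genes, which were chosen with groups apart. Ctse and AY036118 are the ones with lower values in CD45.2+ cells.

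Further genes were looked up after their values were seen. Of 85 ribosomal protein genes 10 were called, all higher in CD45.2+ cells (14 by DESeq2), a share above the 0.761% of all genes. Tpt1 (-0.48), H3f3a (-0.40) and Cd74 (-0.23) were among the lower genes, and the histone gene Hist1h2ap (0.70) among the higher ones. Hist1h2ap, at 724, 924 and 1030 CPM against 573, 547 and 547 CPM, was the only one of 8 histone genes called. Hsp90b1, a chaperone of the secretory pathway, was called although its values overlapped, at 350, 280 and 317 CPM against 1032, 258 and 931 CPM, and DESeq2 did not call it (adjusted p = 0.679). All 10 named genes had the same direction of the mean ratio in S-phase and remaining cells. With 10 CPM added, which lowers the ratio of genes at low levels, the mean log2 ratio of CD45.2+ to CD45.1+ cells for Bcl2 was 2.68 in mitotic, 2.69 in S-phase and 1.88 in remaining cells, for Gm10800 2.88, 3.03 and 2.85 and for AY036118 -1.16, -1.24 and -1.09, as values without a test.

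The CD45.1+ mitotic cells of the DOCK8-deficient recipients were compared with those of the Dock8 wt/wt recipients to ask whether dividing wild-type cells differed with their neighbors. Of 3653 genes tested, 0 (0%) passed the adjusted threshold in edgeR and 0 in DESeq2, while 223 had a p under 0.05 before adjustment and 10.5% had groups apart. Without the low-count filter edgeR called 16 genes, 2 higher and 14 lower in the DOCK8-deficient group. Of 75 tested genes of the mitotic lists outside the rule 2 had a p under 0.05 before adjustment. All 5 tested plasma cell genes were lower in the DOCK8-deficient group at an unadjusted p under 0.05, and none passed the adjustment. Xbp1, the regulator of antibody secretion, was at 111, 121 and 88.0 CPM against 433, 87.1 and 295 CPM, so that the Dock8 wt/wt mice spanned the other group. Without Dock8 wt/wt replicate 2, in which Xbp1 was low, 19 genes were called, all lower.

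For the CD45.2+ mitotic cells, the groups labelled by Dock8 genotype were compared under looser settings, since the main assignment left under the minimum of 10 cells per mouse. Donor sex and genotype cannot be told apart in this comparison, since sex-linked transcripts followed the label. Lowering that minimum to 5 cells kept the 8, 6 and 9 cells, and 0 of 6036 genes (0%) passed in edgeR, with 442 at a p under 0.05 before adjustment and 17.3% with groups apart. DESeq2 was not run for that setting. With the highest hashtag at least 3-fold over the next, 108, 188 and 158 Dock8 wt/wt and 24, 12 and 23 DOCK8-deficient mitotic cells were available. Of 6859 genes 1 passed (0.0146%), in edgeR and in DESeq2 alike, while 389 had a p under 0.05 before adjustment and 13.1% had groups apart. The gene was Gm43305, a processed transcript at chr14:54292443-54297456, at 411, 379 and 213 CPM against 134, 106 and 98.9 CPM in Dock8 wt/wt mice (edgeR adjusted p = 6.5e-05, log2 fold change 1.50 with an SE of 0.186). Besides this setting it was called under 7 of 8 other edgeR settings, with adjusted p from 7.8e-07 to 0.474. In CD45.1+ mitotic cells of the Dock8 wt/wt recipients Gm43305 stood at 579, 498 and 57.9 CPM, so its level also varied among mice without DOCK8 deficiency.

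None of the 76 genes of the mitotic lists outside the rule was called between the CD45.2+ groups under the 3-fold rule, with 3 at an unadjusted p under 0.05 and 0 called by DESeq2, beside 1 of 6859 genes called and 389 under that p over all genes, so the count sets the mitotic genes apart in neither direction. Of 11 light zone genes tested 0 were called by edgeR or DESeq2, with a median of -0.55, 1 of 11 above 0 and 6 of 11 at an unadjusted p under 0.05. With hashtags normalized per cell the light zone median was -0.34, with 2 of 13 above 0 and 2 of 13 under that p. With a minimum of 5 cells it was -0.38, with 2 of 9 above 0 and 2 of 9 under that p. Of 8 replication-dependent histone genes 0 were called by either tool, with a median of 0.38, 8 of 8 above 0 and 5 of 8 at an unadjusted p under 0.05. With hashtags normalized per cell the histone median was 0.17, with 7 of 8 above 0 and 1 of 8 under that p. With a minimum of 5 cells it was 0.41, with 7 of 8 above 0 and 3 of 8 under that p. Dock8 itself was at 135, 96.2 and 86.4 CPM under the DOCK8-deficient label and 112, 111 and 114 CPM in Dock8 wt/wt mice (log2 fold change -0.12, adjusted p = 0.969 from edgeR). The effect of the cpm mutation on the transcript level is not known here, so this value was not used to check the label. With hashtags normalized per cell, 5 of 7517 genes were called (0.0665%). Besides Gm43305 these were the chaperone Pdia3 (0.69), the calcium-binding protein S100a10 (1.21) and the protease inhibitor Serpinb1a (1.27), which were higher, and the isoprenoid enzyme Idi1 (-1.24), which was lower. DESeq2 was not run for that setting. Among the sex-linked genes, which were counted apart, Xist was lower (-1.37) and Eif2s3y (3.20) and Ddx3y (2.92) were higher in the mice labelled DOCK8-deficient under the 3-fold rule.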

How the data were processed

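Per the labels, libraries were made with 10x Genomics 3′ v3.1 chemistry, and the authors produced the deposited UMI counts per gene and hashtag with Cell Ranger 5.0.1 on mm10 and analysed them with Seurat 4.0. The members and gene lists were chosen with earlier results of these data known. Here, hashtags were called with HTODemux of Seurat 5.3.0 (quantile 0.99), and hashtags were matched to mice through the deposited hashtag table. S-phase cells were Jchain-low cells below the mitotic rule with Mcm3, Mcm5 and Mcm6 at 6 CP10K or more. Counts were summed per mouse where at least 10 mitotic cells were found, and tested with edgeR 4.0.16 (glmQLFTest, TMM scaling, filterByExpr, Benjamini-Hochberg adjustment, 0.05). DESeq2 1.42.0 served as an alternative. Genes were named from the lists, from the 20 highest and 10 lowest mitotic to remaining ratios, or as up to 10 called genes with the largest fold and groups apart. The mice of a group are separate animals, but each sorted pool is 1 library, so library effects are shared. Exact tests used scipy 1.17.1, and figures used matplotlib 3.10.9. Scripts were tested on simulated data. Alternatives changed the hashtag rule, the threshold (3 and 12 CP10K), cell filters, the low-count filter, scaling and the mice included. DESeq2 and leave-one-out fits under the 3-fold rule, and levels in other cells, were added after seeing the data. Gene positions are those of GENCODE on GRCm38. Sex-linked genes were counted apart in all comparisons. Some genes are not reported here.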

Additional observations from a re-analysis of the deposited data

Results flagged for a closer look

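The 800 CD45.2+ mitotic cells without hashtag counts entered no comparison between mice. Their Y-linked genes Ddx3y, Eif2s3y, Uty and Kdm5d summed to 36.4 CPM and Xist stood at 1344 CPM. The CD45.1+ mitotic cells, used as control, held no Y-linked UMI in 1975114 UMIs, which allows up to 1.52 CPM. Over all CD45.2+ mitotic cells the Y-linked sum was 30.0 CPM.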

How the results depend on the processing

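Replicate numbers were shared between CD45.2+ and CD45.1+ sums, but the deviations of same-numbered sums correlated only at 0.018, 0.018 and 0.051, and a fit with the replicate block called 48 genes against 49. Without a low-count filter 126 genes were called, and with 1 replicate left out 18 to 51, with 18 without replicate 3 and 21 without replicate 1. For CD45.1+ cells by group the count was 16 without a filter and 0 to 19 with 1 mouse left out. Under the 3-fold rule the CD45.2+ count by genotype was 1 to 9 with 1 mouse left out (chosen after seeing the data; 9 without DOCK8-deficient replicate 1, 7 without replicate 3 and 2 without replicate 2), 5 with hashtags normalized per cell and 0 of 6036 with a minimum of 5 cells (edgeR, 442 at an unadjusted p under 0.05). A threshold of 3 CP10K gave 2950 and 437 mitotic cells in the CD45.2+ and CD45.1+ libraries, and one of 12 CP10K gave 694 and 122. The share difference between CD45.1+ groups reversed to -1.16 points with hashtags normalized per cell. That between CD45.2+ and CD45.1+ cells reversed to -0.257 with hashtags normalized per cell, -0.0675 with at least 3 rule UMIs and -0.0501 under stricter cell filters, and ran from -1.45 without replicate 3 to 0.916 without replicate 2. The hashtag log2 ratio of CD45.2+ mitotic cells was 0.0362 against S-phase cells, against -0.11 with all other Jchain-low cells. The causes were not tested. The CD45.2+ share difference by genotype kept its direction under all 14 alternatives and reached the smallest p of the exact permutation test, 0.1, with all kept singlets as the denominator (6.37 points) and at 12 CP10K (2.72 points), where the difference between the CD45.1+ groups, 1.51 points, also reached 0.1. Of the alternative values of named genes 103 kept the call and its direction, 15 lost the call and 0 reversed. The test at 12 CP10K was not run for genes, nor per-cell hashtags for CD45.1+ groups, because too few cells were left. The 6 to 144 mitotic singlets per mouse limit what could be detected.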
